A study of Mus musculus with 8 samples.

Results

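The comparison described here is that of ethanol given late in gestation with its own saline control, taken from the adult mouse brain. Whole brains came from male C57BL/6J offspring at postnatal day 70, whose mothers had been injected with ethanol (doses of 2.5 g/kg) or with saline on gestational days 14 and 16. Each group had 2 arrays of the type Affymetrix Mouse Gene 1.0 ST, and each array held the pooled RNA of 3 mice. These 4 arrays, of 8 in the series, were chosen by their titles, and no other allele or agent was given to either group. A pool shows the mean of its mice, so the spread between 2 arrays is that between 2 pools, and the smallest two-sided p that an exact permutation test of 2 against 2 arrays can give is 0.333.

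Ethanol given at this stage reaches the fetal brain while cortical neurons are being born and are migrating, and lasting changes of the adult transcriptome are one of the outcomes studied in mouse models of fetal alcohol spectrum disorders. Proteins that are secreted or sit in membranes fold in the endoplasmic reticulum, where chaperones and disulphide isomerases assist them. When unfolded protein accumulates there, sensors in its membrane activate transcription factors such as Xbp1, which switch on the chaperone genes. Heat shock proteins do the equivalent work in the cytosol. The genes of these systems lead the account below, followed by genes of the cerebellum, of ribosomes and mitochondria, and by the small RNAs and other genes that were higher.

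Across 21789 probe sets with a single gene symbol, limma found 0 at an adjusted p under 0.05 and 486 at an unadjusted p under 0.05, where 5% of the probe sets would be 1089. The smallest adjusted p in limma was 0.38, for Sdf2l1, and that of every other probe set was 1. At the study's own thresholds, p under 0.05 without adjustment and at least 1.2-fold, 111 probe sets of 109 genes were higher (0.509% of those tested) and 192 of 182 genes were lower (0.881%). These counts use limma's moderated variances. A plain test of each gene alone gave 16 higher and 31 lower at the same thresholds. Re-normalizing the 4 arrays by quantiles gave 108 higher and 104 lower, and cyclic loess gave 105 and 104, so the excess of lower genes was not kept under either scaling. No gene therefore passed the adjusted test, and below a gene is called past the thresholds only in the sense of the study's thresholds. Values are log2 expression, and differences are ethanol minus saline on that scale, with the standard error (SE) from limma.

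The arrays differed in background as well as in genes. Olfactory and vomeronasal receptor genes, mostly silent in the brain, served as the measure of background, and their 95th percentile was 7.70 and 7.27 in ethanol, beside 7.35 and 7.49 in saline. Of the probe sets, 11084 (50.9%) had a mean above the level of 7.45 set by these receptors. Above that level 71.2% of probe sets were lower in ethanol (median -0.048), and at or below it 30.5% were lower (median 0.042). Of the probe sets past the thresholds, 34 of the 111 higher (0.307% of those above background) and 168 of the 192 lower (1.52%) lay above background. The 2 ethanol arrays both lay below the 2 saline arrays in 15.5% of all probe sets and above them in 13.4%, without regard to size. Ethanol replicate 1 was the array farther from the saline mean in 162 of the 192 lower and 93 of the 111 higher probe sets. The part that this shift between arrays plays in the results was not tested. Counts and medians of every list below are to be read beside these shares.

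**Figure D1:**
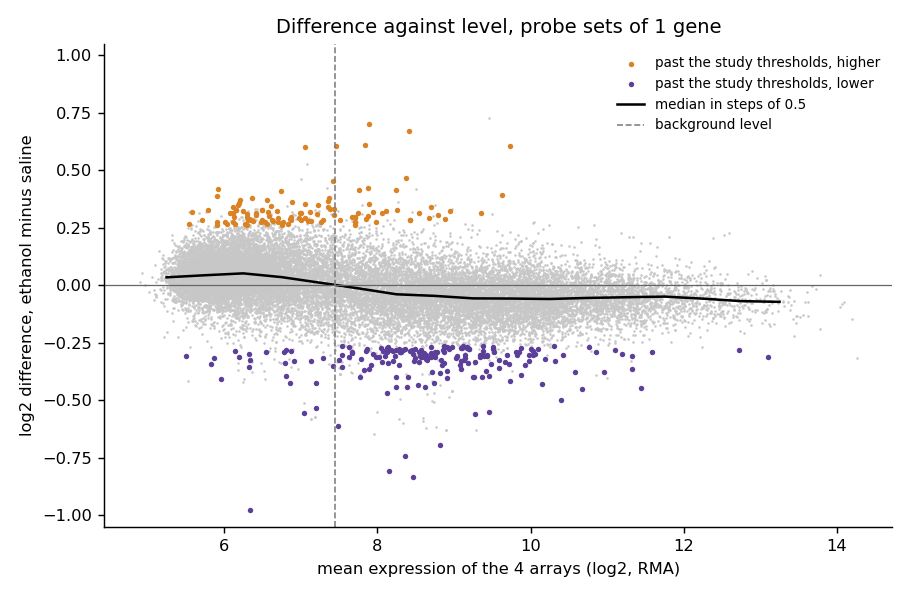
Log2 difference between ethanol and saline (vertical axis) against the mean log2 expression of the 4 late arrays (horizontal axis), with 1 point per probe set and the black line at the median of steps with at least 20 probe sets. The median lay at 0.044 for levels from 5.5 to 6.0 and at -0.057 from 9.0 to 9.5, and probe sets past the thresholds were mostly lower to the right of the background level and mostly higher to its left.

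The tissue matched its label. Snap25, a neuronal protein of synaptic release, lay between 13.40 and 13.78, and Mbp of myelin, Ndrg2 of astrocytes and C1qb of microglia were all far above background in each array. Of 14 probe sets of liver genes not made in the brain, 0 lay above background. General neuronal genes had a median difference of -0.061 with 0 of 16 past the thresholds, but 0.001 under quantile normalization and -0.006 under cyclic loess. Myelin genes (median -0.094), astrocyte genes (-0.073) and microglial genes (0.020) also had 0 members past the thresholds. Under quantile normalization the myelin median was -0.039 and the astrocyte median -0.021.

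The genes of the endoplasmic reticulum stood at the head of the lower genes. Of 46 probe sets of a list of its stress response and folding genes, 10 were past the thresholds and lower and 0 higher. The shares over all probe sets were 0.881% and 0.509%, and 1.52% and 0.307% among those above background. This list, like the others, was chosen with earlier results of these data known. The 10 are 9 genes, because the 2 probe sets of Dnajc3 had identical values and count as 1 measurement. In the list as a whole 36 probe sets were lower, with a median of -0.11 against -0.0029 over all probe sets and -0.048 over those above background. The list's median was -0.062 without saline replicate 1, -0.073 without ethanol replicate 1 and -0.047 under quantile normalization.

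Sdf2l1 (probe set 10438098) encodes part of a chaperone complex of this compartment. Its level was 7.98 and 8.13 in ethanol, and 8.88 and 8.90 in saline. Its difference of -0.83 (SE 0.10) was 0.561-fold, the largest of the probe sets past the thresholds and above background. The groups lay far apart compared with the spread inside each, and without any 1 array the difference was between -0.91 and -0.76. Limma gave it an adjusted p of 0.0090 when only probe sets above background were tested. Limma's value was 0.0062 when the 50% of probe sets with the lowest level were removed. Over all probe sets limma's smallest adjusted p was 0.91 under quantile normalization, 0.67 under cyclic loess and 0.13 with a replicate block. With variances from all 8 arrays, no probe set had an adjusted p under 0.05.

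Hspa5, the main chaperone of the compartment, which binds unfolded chains (probe set 10471586), was at 11.25 and 11.19 in ethanol and at 11.66 and 11.68 in saline, a difference of -0.45 (SE 0.09). Xbp1, the transcription factor of the response (probe set 10374035), was at 10.51 and 10.37 against 10.87 and 10.92. Pdia4, a disulphide isomerase (probe set 10544525), was at 10.09 and 10.20 against 10.66 and 10.63. In all 3 genes the higher ethanol array lay well below the lower saline array, at high levels of expression. A further probe set of Pdia4, at background, went the other way (0.18, not past the thresholds).

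Pdia6, another disulphide isomerase (probe set 10394735), was at 9.15 and 9.20 in ethanol and 9.67 and 9.79 in saline, a difference of -0.55 (SE 0.10). Creld2, a chaperone-like protein induced by stress of the compartment (probe set 10426098), differed by -0.70 (SE 0.12), from 9.03 and 9.29 in saline to 8.36 and 8.57. Manf, a secreted protein of the same response (probe set 10596575), was at 8.28 and 8.34 against 8.72 and 8.77. The groups did not overlap in any of these genes. Dnajb11, a partner of Hspa5, differed by -0.33 (SE 0.09), and Dnajc3, another partner, by -0.28 (SE 0.10); both were named after their values were seen.

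Sdf2l1, Pdia6, Pdia4, Xbp1, Hspa5, Manf and Dnajb11 each stayed past the thresholds in all 18 settings of the analysis. Creld2 did so in 17, the exception being the unmoderated test of each gene alone. Dnajc3 was lost without ethanol replicate 1 (-0.21), saline replicate 1 (-0.29) or saline replicate 2 (-0.26), and under both scalings (-0.22 each).

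**Figure D2:**
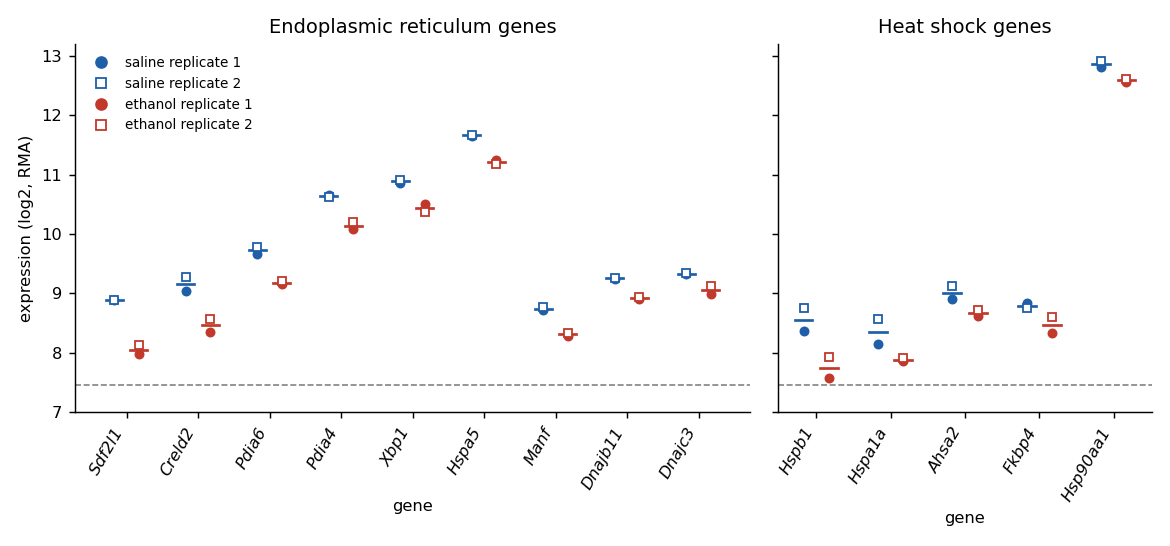
Log2 expression (vertical axis) of the genes of the endoplasmic reticulum list (left) and of the heat shock list (right) that were past the thresholds, with 1 point per array, a bar at the mean of 2 arrays, saline in blue, ethanol in red and the dashed line at the background level of 7.45. Both ethanol points lay below both saline points in each of the 14 genes shown, and the spread was small in Sdf2l1 and Hspa5 and wide in Hspb1 and Hspa1a.

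The lower level was not shared by the whole compartment. The membrane sensors Ern1 (0.05), Atf6 (0.01) and Eif2ak3 (-0.07) and the transcription factor Atf4 (-0.05), which acts after Eif2ak3, lay within 0.1 of 0. The lectin chaperone Canx, at 13.38 and 13.14 in ethanol and 13.33 and 13.22 in saline, differed by -0.02, and the isomerase Pdia3 by -0.02. Calr, the soluble relative of Canx, differed by -0.23 and Herpud1, which serves degradation, by -0.23, both short of a fold of 1.2. These members were named after their values were seen. The next 3 lists were drawn up after the values were seen, so their counts describe a choice. Chaperones and isomerases of the lumen had 9 of 25 probe sets past the thresholds and lower, against 0.881% of all probe sets. Genes of degradation from the compartment had 0 of 13, and targets of Atf4 had 0 of 19 lower and 1 higher. All 13 degradation probe sets were lower, however, with a median of -0.11, which was -0.0078 without saline replicate 1. The median of the Atf4 targets was -0.010.

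The promoters of the lower genes were searched for the endoplasmic reticulum stress element, the sequence through which the factors of the response act (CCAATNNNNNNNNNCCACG, both strands, N for any base), since the members moved together. Promoters were taken from RefSeq (build GRCm38.p6, 250 bases before to 50 after each start) and were found for 8 of the 9 genes, all but Manf. The element was present in 4 of these 8 genes, in 5 of the 27 other genes of the list with an entry, and in 39 of all 32851 promoters (0.119%). The list was made of genes known for this response, so a share above that of all promoters describes how the list was drawn. The 4 matches are shown from 40 bases before to 40 bases after the element, 5′ to 3′ on the strand of the gene, with the 19 bases of the match in capitals; in Creld2 the element is on the other strand.

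Hspa5 (chr2:34771985-34772083, plus strand): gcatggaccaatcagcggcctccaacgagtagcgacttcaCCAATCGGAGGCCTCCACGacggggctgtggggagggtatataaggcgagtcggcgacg
Pdia6 (chr12:17266451-17266549, plus strand): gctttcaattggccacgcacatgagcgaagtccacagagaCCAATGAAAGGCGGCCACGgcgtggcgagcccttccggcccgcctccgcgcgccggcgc
Dnajc3 (chr14:118937787-118937885, plus strand): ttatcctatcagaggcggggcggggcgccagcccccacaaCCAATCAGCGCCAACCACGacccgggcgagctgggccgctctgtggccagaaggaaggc
Creld2 (chr15:88819480-88819578, plus strand): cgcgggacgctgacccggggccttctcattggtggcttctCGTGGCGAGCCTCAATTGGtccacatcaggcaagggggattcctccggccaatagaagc

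In these 4 promoters the match began between 65 and 126 bases upstream of the start. Sdf2l1, the gene with the largest difference, held no full match but 3 copies of its last part, CCACG, on the other strand, capitalized in its promoter below as CGTGG, and Pdia4 and Dnajb11 held 1 copy each. That part alone is common, in 32.8% of all promoters. Xbp1 had neither.

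Sdf2l1 (chr16:17132384-17132630, minus strand): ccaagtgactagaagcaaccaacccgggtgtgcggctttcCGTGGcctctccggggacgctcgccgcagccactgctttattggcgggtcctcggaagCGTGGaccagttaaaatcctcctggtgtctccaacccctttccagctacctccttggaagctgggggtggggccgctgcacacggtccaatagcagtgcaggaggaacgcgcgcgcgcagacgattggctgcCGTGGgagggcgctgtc

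Heat shock genes of the cytosol and mitochondria were lower in 40 of 46 probe sets, with a median of -0.13. Of these, 6 probe sets of 5 genes were past the thresholds and lower, and 0 were higher, against 0.881% and 0.509% of all probe sets (1.52% and 0.307% of those above background). The median of the list was -0.097 without ethanol replicate 1, -0.064 under quantile normalization and -0.085 under cyclic loess, and 5 probe sets stayed past the thresholds under each of those scalings.

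Hspb1, a small heat shock protein that holds unfolding proteins in solution (probe set 10526410), was at 7.57 and 7.93 in ethanol and 8.37 and 8.75 in saline, a difference of -0.81 (SE 0.16). Its other probe set (10408928) gave 7.89 and 8.10 against 8.53 and 8.95, a difference of -0.74 (SE 0.15). Hspa1a, the inducible chaperone of the Hsp70 family, was at 7.87 and 7.91 against 8.14 and 8.57. The saline arrays of both genes lay well apart, and without saline replicate 2 Hspa1a differed by -0.26 and was no longer past the thresholds.

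Hsp90aa1, the inducible cytosolic Hsp90, was at 12.55 and 12.62 in ethanol and 12.82 and 12.92 in saline. Its difference of -0.28 (SE 0.10) was lost under quantile normalization (-0.22) and cyclic loess (-0.23), without ethanol replicate 1 and without saline replicate 2. The Hsp90 cofactors Ahsa2 (-0.34) and Fkbp4 (-0.32), the latter a partner of steroid receptors, were lower in both ethanol arrays. Ahsa2 was lost without ethanol replicate 1 or saline replicate 2 (-0.23), and Fkbp4 without ethanol replicate 1 (-0.19) or saline replicate 1. The heat shock element GAANNTTCNNGAA was found on either strand in 0 of the 4 promoters of lower genes of this list with an entry. It was found in 5 of the 26 others and in 0.603% of all promoters. Only exact matches within 250 bases before to 50 after each start were counted, so imperfect or more distant elements would be missed.

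Genes of cerebellar granule and unipolar brush cells had the lowest median of the lists compared. Granule cells are the small excitatory neurons of the cerebellar cortex, and unipolar brush cells relay input to them. Of 20 probe sets 16 were lower, with a median of -0.16 (-0.22 for the 17 above background), and 5 were past the thresholds, against 0.881% of all probe sets. Both ethanol arrays lay below both saline arrays in 12 of the 20, against 15.5% of all probe sets. Of the 17 above background 15 were lower, where 71.2% of all probe sets above that level were. Under quantile normalization the median was -0.14 and 3 were past the thresholds, and the same numbers were found with cyclic loess. In RNA of whole brain, fewer cells of a type and less RNA per cell cannot be told apart.

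Cbln1, a granule cell protein that organizes the synapse onto Purkinje cells, was at 10.18 and 10.61 in ethanol and 10.87 and 10.66 in saline, a difference of -0.38 (SE 0.15). Its relative Cbln3 was at 10.97 and 11.37 against 11.53 and 11.43. Fat2, a large cadherin of granule cells, was at 8.81 and 9.31 against 9.48 and 9.43. In each of these genes ethanol replicate 1 was far below the rest, and ethanol replicate 2 lay close to the lower saline array. Zic2, a transcription factor of granule cells, was at 10.64 and 10.90 against 11.11 and 11.19. Eomes, which unipolar brush cells express, was at 7.57 and 7.84 against 7.88 and 8.26. Eomes is also on the lists of the olfactory bulb and of neural precursors, so its change cannot be placed in the cerebellum. Zic2 had a larger gap between the groups than Eomes.

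Gabra6, the granule cell subunit of the GABA-A receptor, was named after its values were seen. It was also lowest in ethanol replicate 1, at 10.33 and 10.98 against 11.00 and 11.09, but did not reach the p threshold (-0.39, SE 0.18). Without ethanol replicate 1 the median of the list was -0.075 and none of Zic2 (-0.25), Fat2 (-0.15), Cbln1 (-0.16), Eomes (-0.23) and Cbln3 (-0.11) was past the thresholds. Without saline replicate 1 Fat2, Cbln1 and Cbln3 were lost, and without saline replicate 2 all but Cbln1. The metabotropic receptor Grm4, of the granule cell's axon terminals, was at 9.48 and 9.88 against 10.13 and 10.00 (-0.39), and Gabrd, a receptor subunit of granule cells and other neurons, at 8.75 and 9.02 against 9.30 and 9.09 (-0.31). Both came from other lists and had the same low ethanol replicate 1, and both were lost without it or without saline replicate 1. Grm4 was the 1 of 23 glutamate receptor probe sets past the thresholds, with 12 higher and 11 lower (median 0.007). Gabrd was the 1 of 15 GABA-A receptor probe sets past them, with 6 higher and 9 lower (median -0.004). Gabrd was also lost under quantile normalization and cyclic loess (-0.26 each). Among Purkinje cell genes 1 of 14, Gng13 (-0.32, and -0.26 under quantile normalization, where it was lost), was past the thresholds, against 0.881% of all probe sets. The median of that list was -0.089, and -0.020 without ethanol replicate 1. Cortical projection neuron genes had a median of -0.005 and those of striatal neurons of 0.007, with 0 past the thresholds, and these medians were 0.040 and 0.057 under quantile normalization.

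**Figure D3:**
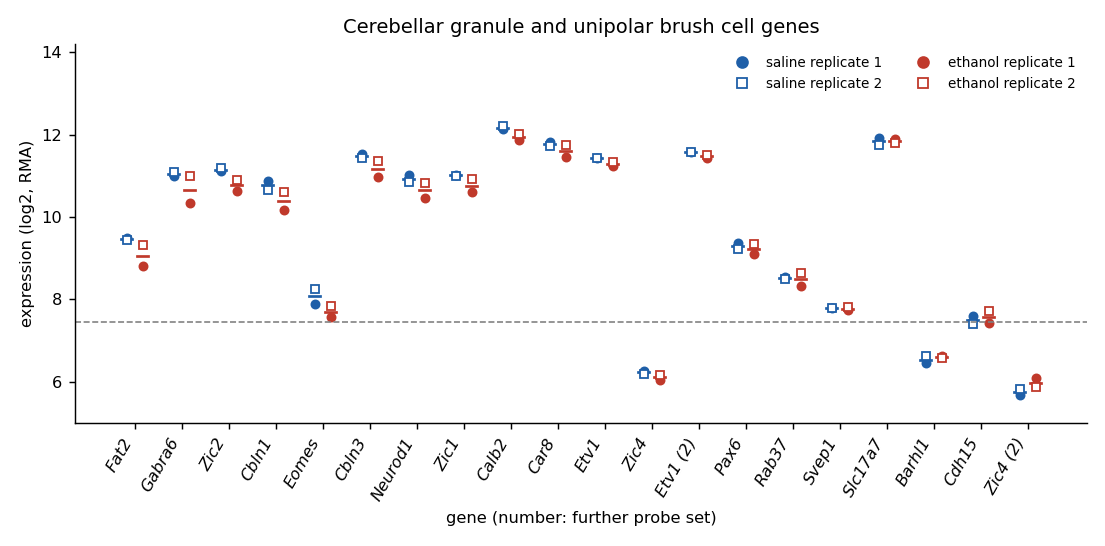
Log2 expression (vertical axis) of all 20 probe sets of the cerebellar granule and unipolar brush cell list, ordered by difference, with 1 point per array, a bar at the mean of 2 arrays and the dashed line at background. The filled red points, ethanol replicate 1, lay below the other arrays from Fat2 to Car8, and the open red points, ethanol replicate 2, lay close to saline in most of them.

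Few genes of protein synthesis and of mitochondria were past the thresholds. Of 219 probe sets of cytosolic ribosomal proteins 189 were lower, with a median of -0.068, and 6 were past the thresholds and lower, against 0.881% of all probe sets, of which 4 are probe sets of Rps29 and the others of Rps14 and Rps12. Probe sets of ribosomal protein genes can bind near-identical copies and pseudogenes, so they are not independent. All 6 were lost under quantile normalization and cyclic loess, where the medians were -0.016 and -0.019, and the median was -0.036 without saline replicate 2. Rps29 was at 8.82 and 8.99 in ethanol and 9.09 and 9.42 in saline in the probe set of the largest difference.

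Mitochondrial ribosomal proteins were lower in 71 of 84 probe sets, with a median of -0.10, and 4 were past the thresholds, against 0.881% of all probe sets. That median was -0.053 when ethanol replicate 1 was left out and -0.058 when saline replicate 1 was. Of these Mrps27 was at 8.07 and 8.33 against 8.66 and 8.54, and was lost without ethanol replicate 1 (-0.27) or saline replicate 1 (-0.34). Mrpl42 lay at background with a high saline replicate 2, at 7.03 and 6.84 against 7.19 and 7.74, and was lost without that array (-0.26). The list kept 4 past the thresholds under both scalings. Subunits of the respiratory chain and ATP synthase were lower in 91 of 106 probe sets (median -0.078, and -0.033 under quantile normalization). Of these, 3 were past the thresholds, against 0.881% of all probe sets. They were 2 of Atp5l, of ATP synthase, and 1 of the electron carrier Cycs, at background, the 1 that stayed under both scalings. Among probe sets above background, where 71.2% of all were lower, 187 of 212 cytosolic ribosomal, 66 of 75 mitochondrial ribosomal and 88 of 100 respiratory chain probe sets were lower.

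Replication-dependent histone genes, whose messages normally lack a poly(A) tail, had 2 of 28 probe sets past the thresholds, both lower, against 0.881% of all probe sets. H2bc14 was at 6.78 and 6.75 in ethanol and 7.23 and 7.40 in saline, at background, and H2ac15 at 9.42 and 9.59 against 9.80 and 9.88. The median of the list was -0.057, and -0.015 without saline replicate 1. H2ac15 was lost without ethanol replicate 1 or saline replicate 2, whereas H2bc14 stayed past the thresholds in each of the 16 settings that hold it.

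Genes that neurons induce within minutes of activity were past the thresholds in 3 of 20 probe sets, all lower, against 0.881% of all probe sets. Fosl2, a partner in the AP-1 factor, was at 7.29 and 7.44 in ethanol and 7.72 and 7.73 in saline, and stayed past the thresholds in all 18 settings. Both of its ethanol values lay below the background level of 7.45. Homer1, a scaffold of glutamate synapses, was at 10.65 and 10.60 against 10.92 and 10.87 (-0.27), and Egr3 at 8.84 and 8.85 against 9.17 and 9.06 (-0.27). The last 2 had tight groups, but both were lost under quantile normalization (-0.21 each) and without ethanol replicate 2 or saline replicate 1. In the list 12 were lower and 8 higher, with differences from -0.36 to 0.23 and a median of -0.036, which was -0.0076 without ethanol replicate 1 and -0.13 without ethanol replicate 2.

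Other lower genes belonged to no common list. Chd7, a chromatin remodeller mutated in CHARGE syndrome, was at 8.54 and 9.44 in ethanol and 9.47 and 9.64 in saline. Its difference of -0.56 (SE 0.24) rested on ethanol replicate 1 and was -0.11 without it, and the gene was also lost under both scalings and without either saline array. Kcnj2, an inward rectifier potassium channel, was at 8.01 and 8.31 against 8.67 and 8.54 (-0.44), and Desi2, a peptidase, at 8.30 and 8.51 against 8.87 and 8.82 (-0.44). Both stayed past the thresholds in 17 of 18 settings. Pglyrp1, which recognizes bacterial cell walls, was at 7.85 and 8.21 against 8.33 and 8.62, and Tceal9 at 9.72 and 10.16 against 10.52 and 10.21. Tceal9 was lost without ethanol replicate 1 (-0.21) or saline replicate 1, and Pglyrp1 without ethanol replicate 1 (-0.26) or saline replicate 2.

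Prdx1, a peroxidase that removes hydrogen peroxide, was at 11.08 and 11.02 in ethanol and 11.29 and 11.41 in saline. It was the 1 member of 33 past the thresholds among genes of alcohol metabolism and antioxidant defence, against 0.881% of all probe sets. It was lost under quantile normalization (-0.25) and without ethanol replicate 2 or saline replicate 2. Mfsd2a, the lipid transporter of the blood-brain barrier, was at 9.94 and 10.12 against 10.33 and 10.36 (-0.32), and was lost under quantile normalization (-0.25) and without ethanol replicate 1 or saline replicate 2. The clock repressor Bhlhe40 differed by -0.30 and was lost under that scaling (-0.24) and without ethanol replicate 1 or saline replicate 2. The troponin gene Tnnc1, at 8.32 and 8.34 against 8.60 and 8.69, was past the thresholds in 17 of 18 settings, the exception being without saline replicate 2. Myl1 of skeletal muscle, named after its values were seen, had the largest difference of all lower probe sets (-0.98, SE 0.43), which came from saline replicate 1 alone, at 7.69 beside 5.95 in saline replicate 2 and 5.91 and 5.79 in ethanol. The list of muscle and bone genes had a median of -0.023, which was 0.12 when saline replicate 1 was left out and -0.21 when saline replicate 2 was, and the part of such tissue in these values was not tested.

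Of the genes that the study discusses for fetal alcohol exposure, 16 probe sets of 15 genes were measured with a single symbol. Otx2, a transcription factor of the early forebrain and, in the adult, of choroid plexus and pineal gland, was the 1 gene past the thresholds, at 8.00 and 8.29 in ethanol and 8.47 and 8.40 in saline, a difference of -0.29 (SE 0.12). It was lost under quantile normalization (-0.25) and without ethanol replicate 1 (-0.14) or either saline array. Dlk1 (0.02) and Meg3 (0.07), of the imprinted Dlk1-Dio3 region, Ctcf (-0.04), the insulator protein, and Igf2 (-0.03), the growth factor, differed by no more than their SE of at least 0.09. Mir679, a microRNA gene of the same region, was at 9.86 and 9.44 against 9.63 and 9.05. Its difference of 0.31 (SE 0.19) was the largest of these genes but not past the thresholds, and the groups overlapped. Leaving out ethanol replicate 1 gave 0.10, and leaving out saline replicate 2 gave 0.018. Nmnat1, an enzyme of NAD synthesis, differed by -0.05, and the Slitrk2 probe sets by 0.02 and -0.15.

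**Figure D4:**
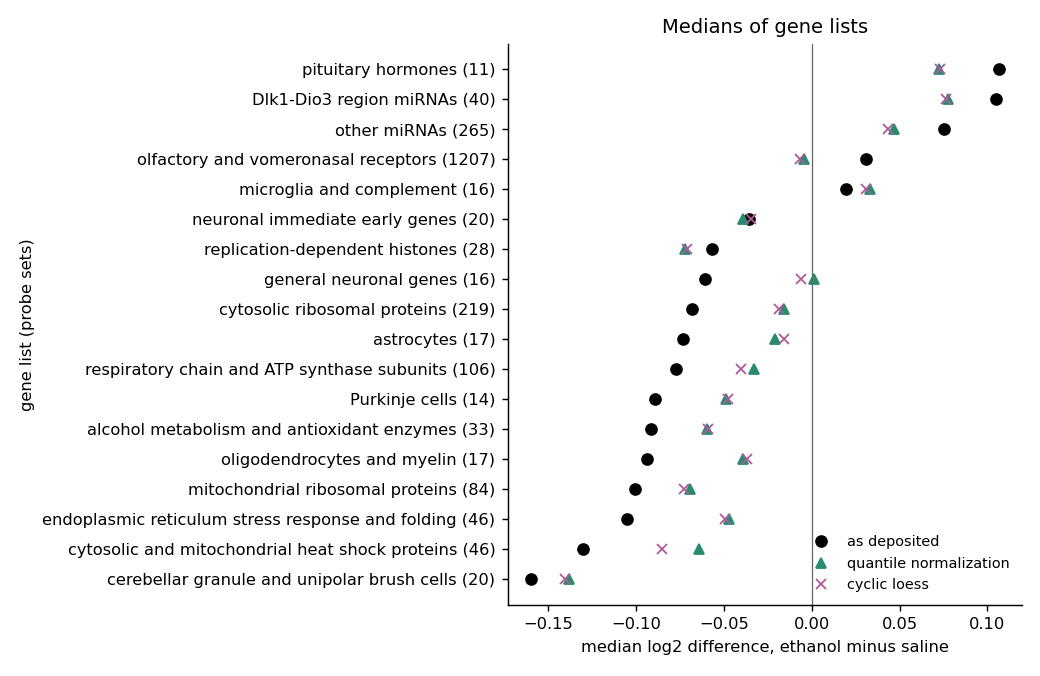
Median log2 difference between ethanol and saline (horizontal axis) of 18 gene lists (vertical axis, number of probe sets in brackets) with the values as deposited (black), after quantile normalization (green) and after cyclic loess (purple). Most lists left of 0 moved toward it under both scalings, histones and immediate early genes aside, the cerebellar list stayed lowest at about -0.14, and the receptor list, which marks background, moved from 0.031 to below 0.

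The higher genes were fewer above background. MicroRNAs are cut from hairpin precursors and repress messages through a seed of 7 bases, and 3 microRNA genes lay above background among the genes past the thresholds and higher. Their mature forms are given below from RefSeq (build GRCm38.p6), 5′ to 3′, with the seed, bases 2 to 8, in capitals, since the arrays detect the gene and cannot say which arm was present. No seed is shared among the 6 arms.

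mmu-miR-342-5p: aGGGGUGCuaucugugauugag
mmu-miR-342-3p: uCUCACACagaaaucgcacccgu
mmu-miR-194-5p: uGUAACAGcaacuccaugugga
mmu-miR-194-1-3p: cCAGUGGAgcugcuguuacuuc
mmu-miR-376b-5p: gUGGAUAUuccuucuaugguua
mmu-miR-376b-3p: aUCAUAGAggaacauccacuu

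Mir342 was at 8.06 and 7.99 in ethanol and 7.78 and 7.67 in saline, a difference of 0.30 (SE 0.10). Mir194-1 was at 8.46 and 8.10 against 8.07 and 7.84 (0.32), and Mir376b, of the Dlk1-Dio3 cluster, at 7.90 and 7.81 against 7.69 and 7.47 (0.28). The groups of Mir342 were the most clearly apart, and those of Mir194-1 nearly touched. All 3 were lost without ethanol replicate 1 (0.27, 0.14 and 0.23 in that order) or saline replicate 2. Mir143 and Mir196b were also past the thresholds, at background.

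Over all 265 probe sets of microRNAs outside the cluster 218 were higher, with a median of 0.075, and 4 were past the thresholds, against 0.509% of all probe sets. The 40 of the Dlk1-Dio3 cluster had 30 higher and a median of 0.11, with 1 past the thresholds. Most microRNA probe sets lay at background, where the median of all probe sets was 0.042, but 55 and 18 lay above it and had medians of 0.13 and 0.12. The median of the first list was 0.013 without ethanol replicate 1, 0.015 without saline replicate 2 and 0.13 without saline replicate 1. That of the cluster was 0.065, 0.026 and 0.19 in the same order. Rian, the long RNA that hosts small RNAs of the cluster, was at 7.93 and 7.80 against 7.70 and 7.43, a difference of 0.30 (SE 0.12). This was 0.23 when ethanol replicate 1 was left out and 0.17 when saline replicate 2 was, and then not past the thresholds. Snord95, a C/D box RNA that guides modification of other RNA, was at 8.33 and 8.58 against 8.13 and 7.95 (0.42), and was lost without ethanol replicate 2 (0.29) or saline replicate 2.

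Gh, the growth hormone gene of the pituitary, had the largest difference of the higher genes (0.70, SE 0.27), from ethanol replicate 2 alone: it was at 7.74 and 8.74 in ethanol and 7.69 and 7.39 in saline, and 0.21 higher without that array. It was also lost without saline replicate 2. The pituitary list had 8 of 11 probe sets higher with a median of 0.11, and Gh and Ghrhr were the 2 above background, while Prl, Pomc and Cga, which mark other hormone cells, lay at background in each array. Their part in the value of Gh was not tested. Several other genes near the top are known from other tissues: Prp2, a proline-rich protein, was at 8.90 and 8.60 against 8.48 and 7.67, Krtap10-10 of hair at 8.34 and 7.96 against 7.91 and 7.17, and Crygf of the lens at 8.08 and 8.10 against 7.88 and 7.45. In these 3 genes saline replicate 2 was low, and without it the differences were 0.27, 0.24 and 0.21, none past the thresholds. Myo18b was at 8.12 and 7.42 against 7.26 and 7.07 (0.61), with ethanol replicate 1 apart, and the pseudogene Btnl5-ps at 10.30 and 9.77 against 9.62 and 9.24 (0.60). Without ethanol replicate 1 they differed by 0.26 and 0.34, and both were lost there and without saline replicate 2.

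The remaining higher genes of the 15 were Gm4983, Olfr10, Olfr314, Pate11, Morc2b, Spef2, 2610528A11Rik, 4930451I11Rik and Phgdh, with differences from 0.34 to 0.47. Olfr10 and Olfr314 are odorant receptors and belong to the list that sets the background here. Of its 1207 probe sets, 9 were past the thresholds and higher and 5 lower, against 0.509% and 0.881% of all probe sets. Phgdh, the first enzyme of serine synthesis, lay at the edge of background, at 7.42 and 7.64 against 7.01 and 7.38. It was past the thresholds in 9 of the 16 settings that hold it, and was lost under quantile normalization (0.32), cyclic loess (0.33) and median centring and without ethanol replicate 2 or saline replicate 1 (0.16). Without saline replicate 2 none of Gm4983, Olfr314, Pate11, Morc2b, Spef2, 2610528A11Rik and 4930451I11Rik was past the thresholds.

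**Figure D5:**
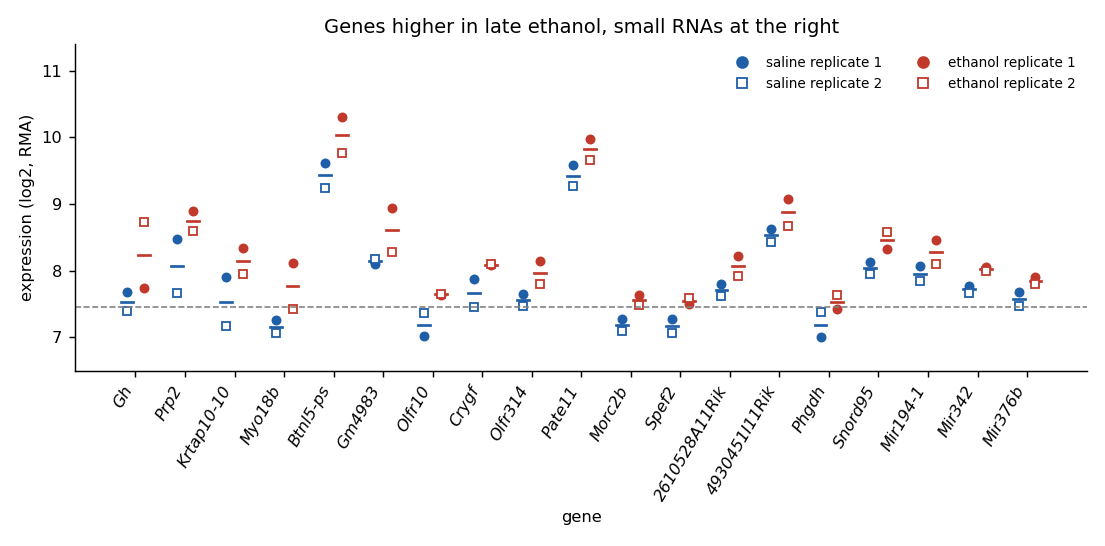
Log2 expression (vertical axis) of the 15 genes of largest difference among those higher in ethanol and of 4 small RNAs (right), with 1 point per array, a bar at the mean of 2 arrays and the dashed line at the background level of 7.45. Most of these genes lay within 2 log2 units of background, ethanol replicate 2 stood alone in Gh, and the open blue points of saline replicate 2 were the lowest in most genes.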

How the data were processed

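RNA of whole brain was hybridized to Affymetrix Mouse Gene 1.0 ST arrays, with 3 mice pooled per array and 2 arrays in each late group. The deposited values are on the log2 scale: the authors obtained them by RMA, including quantile normalization and a correction for GC content, with the Partek software (release 6.6 according to the submitters' processing notes). The study's methods describe this for its early arrays, and the late arrays are taken to have been treated alike. No source used here names a genome build or annotation release.

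Of 35556 probe sets, 12146 had no gene symbol and 1621 had several in the platform annotation; both were left out, and 21789 with 1 symbol were used. For its miRNA arrays the study describes pools of males from different litters, each litter used once; the sources used here do not state this for the late expression arrays, and p-values measure the spread between these pools. The number of arrays limits the precision. Log2 values were fitted with limma 3.58.1 (R 4.3.3) on the 4 late arrays alone, with moderated variances and two-sided tests, and adjusted by the Benjamini-Hochberg method over all 21789. The fit was tested on simulated data. A probe set counted as background if the 4 arrays averaged no more than the mean of the arrays' 95th percentiles of 1207 odorant and vomeronasal receptor probe sets.

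The genes named are, per direction, the 15 of largest difference past the study's thresholds without overlap of groups and above background in the higher group, up to 6 small RNAs, up to 6 members past the thresholds (smallest p) of each list described, or else its 3 of highest level, the genes singled out by the study, and the strongest gene of each cell type list. Others are said to be named after their values were seen. The comparison and the 57 gene lists, 9 of them added after these fits, were chosen with earlier results of these data known. Lists are described by counts and medians.

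Besides the main fit 17 others were run: the methods' plain test on single genes, variances from all 8 arrays, a replicate block, the block with saline numbers crossed, median centring, quantile normalization, cyclic loess, probe sets above background only, the upper 50% by level, every probe set, a single probe set for each gene, a trend of variance with intensity, weights for arrays and the removal of each array. Where an array was left out, the lone array was assumed to vary like the other group. Plots used matplotlib 3.10.9 (Python 3.11.15).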

Additional observations from a re-analysis of the deposited data

How the results depend on the processing

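No named probe set past the thresholds changed direction under quantile normalization, cyclic loess or median centring. The other alternatives could hardly show such a change. Most leave the difference itself as it is, and groups that do not overlap keep their direction when 1 array is left out. The methods' plain test gave 16 probe sets higher and 31 lower past the study's thresholds, and 0 at an adjusted p under 0.05 (694 unadjusted). With every probe set, with or without symbol, 399 were higher and 325 lower. Quantile normalization and cyclic loess each gave 104 lower, with 108 and 105 higher, of which 160 of 212 and 164 of 209 were shared with the 303 of the values as deposited; the 50.9% and 50.2% of calls that were higher compare with 36.6% as deposited. Testing only probe sets above background gave 49 higher, 205 lower and 1 at the adjusted threshold, and the upper 50% by level 47, 208 and 1, in both cases Sdf2l1, with 19.3% and 18.4% of the calls higher. The labels do not say whether the replicate numbers pair the arrays, and the correlation of same-numbered deviations was -0.24. With a replicate block 166 were higher, 233 lower and 0 at the adjusted threshold. With the saline numbers crossed, a setting added after seeing the data, the counts were 118, 268 and 0. Leaving out 1 array gave 57 to 1061 higher, 234 to 944 lower and 0 to 1 at the adjusted threshold. Without saline replicate 2 the counts were 57 and 275, with 1 adjusted call, Myl1 (limma adjusted p = 0.044), without ethanol replicate 2 they were 1061 and 944, without saline replicate 1 400 and 279, and without ethanol replicate 1 78 and 234.

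Of 80 named probe sets past the thresholds, 52 stayed so under quantile normalization, 51 under cyclic loess, 15 in the plain test, 31 without ethanol replicate 1, 27 without saline replicate 2, 61 without saline replicate 1 and 68 without ethanol replicate 2. The background level limits what the arrays show: taken at the 90th percentile of the receptors, 45 higher and 172 lower probe sets lay above it. Under quantile normalization the median turned from below to above 0 in 13 of the 57 lists and the other way in 4, among them genes of splicing factors (to 0.048), cortical projection neurons (0.040), GABA-A receptor subunits (0.038) and oligodendrocyte precursors (0.029), and under cyclic loess in 12 and 4. The cause of these shifts was not tested.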

Other observations

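Genes that are induced by growth factor signalling through the kinase ERK and that restrain it made up a list drawn up after their values were seen, so its counts describe a choice. Of its 19 probe sets 16 were lower and 3 higher, with a median of -0.16 (-0.12 under quantile normalization and -0.11 without ethanol replicate 1). Among them 6 were past the thresholds and lower, against 0.881% of all probe sets. Spred2, an inhibitor of the pathway, was at 9.45 and 9.59 in ethanol and 9.97 and 9.91 in saline (-0.42, SE 0.10), and its other probe set at 10.05 and 10.26 against 10.44 and 10.51 (-0.33, SE 0.10). The first of these was past the thresholds in all 17 settings that hold it. Etv5, a transcription factor that follows ERK activity, was at 9.05 and 9.28 against 9.56 in both saline arrays (-0.40, SE 0.11), and Dusp6, the phosphatase of ERK, at 9.13 and 9.43 against 9.50 and 9.68 (-0.31). Spred1 (-0.30) and Phlda1 (-0.37) were lower as well, whereas Spry1 (0.01), Spry2 (-0.08) and Spry4 (-0.10), also inhibitors, were not past the thresholds. Spred1, Dusp6 and Phlda1 were lost under quantile normalization, and they and the other Spred2 probe set without ethanol replicate 1 or saline replicate 2.

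Proteasome subunits had 0 of 45 probe sets past the thresholds and a median of -0.078, which was -0.024 under quantile normalization. Genes of secretory cells of salivary gland, tear gland and skin were another list drawn up after the values were seen. It had 4 of 85 probe sets past the thresholds and higher, against 0.509% of all probe sets. Its median was 0.032 (-0.010 under quantile normalization and -0.066 without ethanol replicate 1). Ethanol replicate 2 was closer to saline replicate 1 (correlation across probe sets of 0.998) than to ethanol replicate 1 (0.996), and ethanol replicate 1 had the lowest share of probe sets above the background of its own array, 47.5%, against 50.1% to 53.2% in the others.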
